A study of Mus musculus with 16 samples.

Results

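The genes described here encode the proteins of the cytosolic ribosome. They were the 35 genes, read by 49 probe sets, whose single symbol in the platform annotation began with Rpl or Rps and a digit, together with Rplp0 and Rpsa. They came out of 8251 genes on the 10833 probe sets that named 1 gene, among 12422 probe sets of an Affymetrix mouse array. Kinases of the Rps6k family and symbols marked as pseudogenes were left out, and the probe set with the highest mean stood for a gene. The choice used no expression difference. Of the 35 genes, 16 encode small-subunit proteins, 14 large-subunit proteins, 1 the stalk protein Rplp0, and 4 are paralogs of a ribosomal protein (Rpl39l, Rpl7l1, Rps27l and Rps4l). A further 39 probe sets named a ribosomal protein gene together with other genes, and 33 ribosomal protein genes, among them Rps6, Rpl3 and Rpl5, were named only there, so that they are not among the 35.

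The cells were double-positive (CD4+CD8+) thymocytes taken from fetal thymic organ culture, the culture of whole fetal thymus lobes. In each of 2 strains, 3 arrays held RNA of BDC2.5 transgenic thymocytes without peptide, 3 held RNA of BDC2.5 thymocytes after 16 h with peptide, and 2 held RNA of wild-type thymocytes, 16 arrays in all. BDC2.5 mice carry the rearranged T cell receptor genes of a diabetogenic CD4 T cell clone, so that most of their thymocytes bear that receptor. The backgrounds were NOD, the strain that develops autoimmune diabetes spontaneously, and B6g7, which carries the NOD MHC class II haplotype on a C57BL/6 background, so both strains share that MHC. The labels give no age, no name or dose of the peptide and no statement on whether wild-type cultures received peptide. They do not say that arrays of a group came from separate animals, so p-values measure the spread between these samples, which may be technical.

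Ribosomal proteins and ribosomal RNA make up the 2 subunits of the ribosome: the small subunit reads the message and the large subunit joins amino acids. Their genes are expressed in nearly every cell, and the proteins are made in balanced amounts. Most of their messages begin with a terminal oligopyrimidine (TOP) tract, a run of C and T at the 5′ end through which mTOR signalling controls how much of the message is translated, largely without changing its level. T cell receptor signalling is known to increase ribosome production in mature T cells. Double-positive thymocytes are small cells, and strong receptor signals in them lead to negative selection, the death of self-reactive cells, which is the subject named in the title of the series.

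The start regions of 6 members are shown because the results below turn on their spread between arrays, or because they have a TOP-like start. RefSeq windows of 300 bases (250 before and 50 after the start, GRCm38.p6) were at hand for 28 of the 35 genes. There were 37 such windows, since a gene can have several starts, and a gene counted for a motif if any of its windows held it. The start printed was one with CTTTCC in the 60 bases shown where the gene had one, and otherwise its first. Each line below gives 40 bases before and 20 after the transcript start, 5′ to 3′ on the gene's strand. Capitals mark the letters CTTTCC, a short pyrimidine core searched on the sense strand as a stand-in for a TOP tract. Rpl13a lies on the minus strand at chr7:45128726-45128785, Rps10 on the minus strand at chr17:27635225-27635284, Rps27 on the minus strand at chr3:90213629-90213688, Rpl19 on the plus strand at chr11:98026670-98026729, Rpsa on the plus strand at chr9:120127726-120127785 and Rps4x on the minus strand at chrX:102189372-102189431.
Rpl13a: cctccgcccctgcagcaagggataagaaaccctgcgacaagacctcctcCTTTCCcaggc
Rps10: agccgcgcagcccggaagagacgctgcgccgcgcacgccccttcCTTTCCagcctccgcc
Rps27: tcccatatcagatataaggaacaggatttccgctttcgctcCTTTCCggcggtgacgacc
Rpl19: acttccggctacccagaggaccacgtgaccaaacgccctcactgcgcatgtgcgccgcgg
Rpsa: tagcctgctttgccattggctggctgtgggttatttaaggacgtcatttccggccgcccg
Rps4x: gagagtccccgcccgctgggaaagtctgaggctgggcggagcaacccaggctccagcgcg

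In Rps27 the core began at base 2 of the transcript, in Rps10 at base 5 and in Rpl13a at base 10. The windows of Rpl19, Rpsa and Rps4x held no such run this close to the start. Within 10 bases before to 20 after the start, CTTTCC was found in 6 of 28 members (21.4%; Rpl13a, Rpl35a, Rpl38, Rpl39l, Rps10 and Rps27), against 1.52% of 27025 genes. Over the whole 300 bases it was found on the sense strand in 14 of 28 members (50%) and in 16% of all genes. The ETS core CCGGAAG, searched on both strands, was in 12 of 28 members (42.9%) and in 9.93% of all genes. The YY1 core AAGATGGC, on both strands, was in 5 of 28 members (17.9%) and in 3.19% of all, and TATAAA in 4 of 28 (14.3%) and in 15.7% of all. None of these motifs contains another, and a match describes the letters of the window, not a bound site.

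The deposited values were linear intensities, with array medians between 54.7 and 59.1. The 35 members fell into 20 with a mean intensity above 512 (the lowest of them at 734), called bright here, and 15 at or below 234, of which 7 lay below the array medians. No detection calls were among the files used, so whether the dim probe sets were above background was not tested. Of 10 markers of double-positive thymocytes 9 were measured: Cd8a lay between 1074 and 5146, Rag1 between 543 and 4745 and Dntt between 864 and 4624, while Cd4 (158 to 327), Cd3e (213 to 319) and Rag2 (74.3 to 402) were in or near the range of the dim members. Their summed intensity was lower at 16 h of peptide in B6g7 (7809 to 11134) than without it (11747 to 12924), and in NOD it was 9521 to 11485 against 10065 to 15091. The brightest markers weigh most in such a sum. In each strain 6 of the 9 were lower with peptide, 3 were higher and 0 were called. An unadjusted p under 0.05 with limma was found for 2 of the 9 in B6g7 (3.4% of all probe sets) and for 0 in NOD (1.67%). In the mean strain difference 8 of the 9 were higher in NOD, with a median of 0.11 and a range from -1.92 to 1.05. There 2 of the 9 were called, 1 higher and 1 lower in NOD (1.3% of all probe sets). Without peptide 1 was called, higher in NOD (0.266%), and at 16 h 1, lower in NOD (0.491%). In wild-type cells 0 were called (0.0886%). The summed intensity of 10 myeloid and dendritic markers was 605 to 952 in BDC2.5/B6g7 without peptide and 962 to 1403 at 16 h, with no overlap; it was 689 to 1179 in wild-type B6g7 and 452 to 536 in the NOD groups. For peptide in B6g7, 7 of the 10 were higher, 3 had an unadjusted p under 0.05 with limma (3.4% of all probe sets) and 0 were called. For peptide in NOD, 7 of the 10 were lower, with a median log2 difference of -0.12 and 0 called. In the mean strain difference 7 of the 10 were lower in NOD, with a median of -0.10. There 1 of the 10 was called (1.3% of all probe sets), the only 1 with an unadjusted p under 0.05 with limma. Apoe alone spanned 102 to 971 over the arrays. The summed intensity was 309 to 456 for 5 B cell markers, 238 to 295 for 7 of thymic epithelium, 514 to 685 for 8 of mesenchyme and endothelium, 144 to 228 for 3 of erythroid cells and 240 to 643 for 4 of NK and innate lymphocytes, among which Gzma spanned 142 to 558. The part of these values in the ribosomal protein values was not tested. On arrays of bulk RNA, fewer cells of a type and less RNA per cell cannot be told apart.

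Of the 16 arrays, 6 stood apart in an earlier reading of these data: the 4 BDC2.5 arrays numbered 3 in their groups and the 2 wild-type arrays numbered 2. On these the log2 signal of the 3′ Actb probe set exceeded that of the 5′ one by 1.37 to 1.96, against 2.24 to 3.27 on the other 10 arrays. For Gapdh it exceeded it by 1.52 to 2.32, against 2.15 to 2.97. These 6 are called the third-number arrays below, and results that rest on them are given with and without them.

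The arrays of 1 group could differ several-fold in a ribosomal protein gene. Rpl19, a large-subunit protein, read 4448, 2435 and 1631 in BDC2.5/B6g7 without peptide and 4491, 4092 and 4064 at 16 h, in the order of the array numbers. In BDC2.5/NOD it read 4685, 4299 and 1303 without peptide and 3559, 4139.8 and 2342 at 16 h. Wild-type B6g7 gave 3507 and 1286, and wild-type NOD gave 3949 and 1230.4. The third-number array was the lowest of its group in each of the 6 groups, and the groups overlapped.

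**Figure D1:**
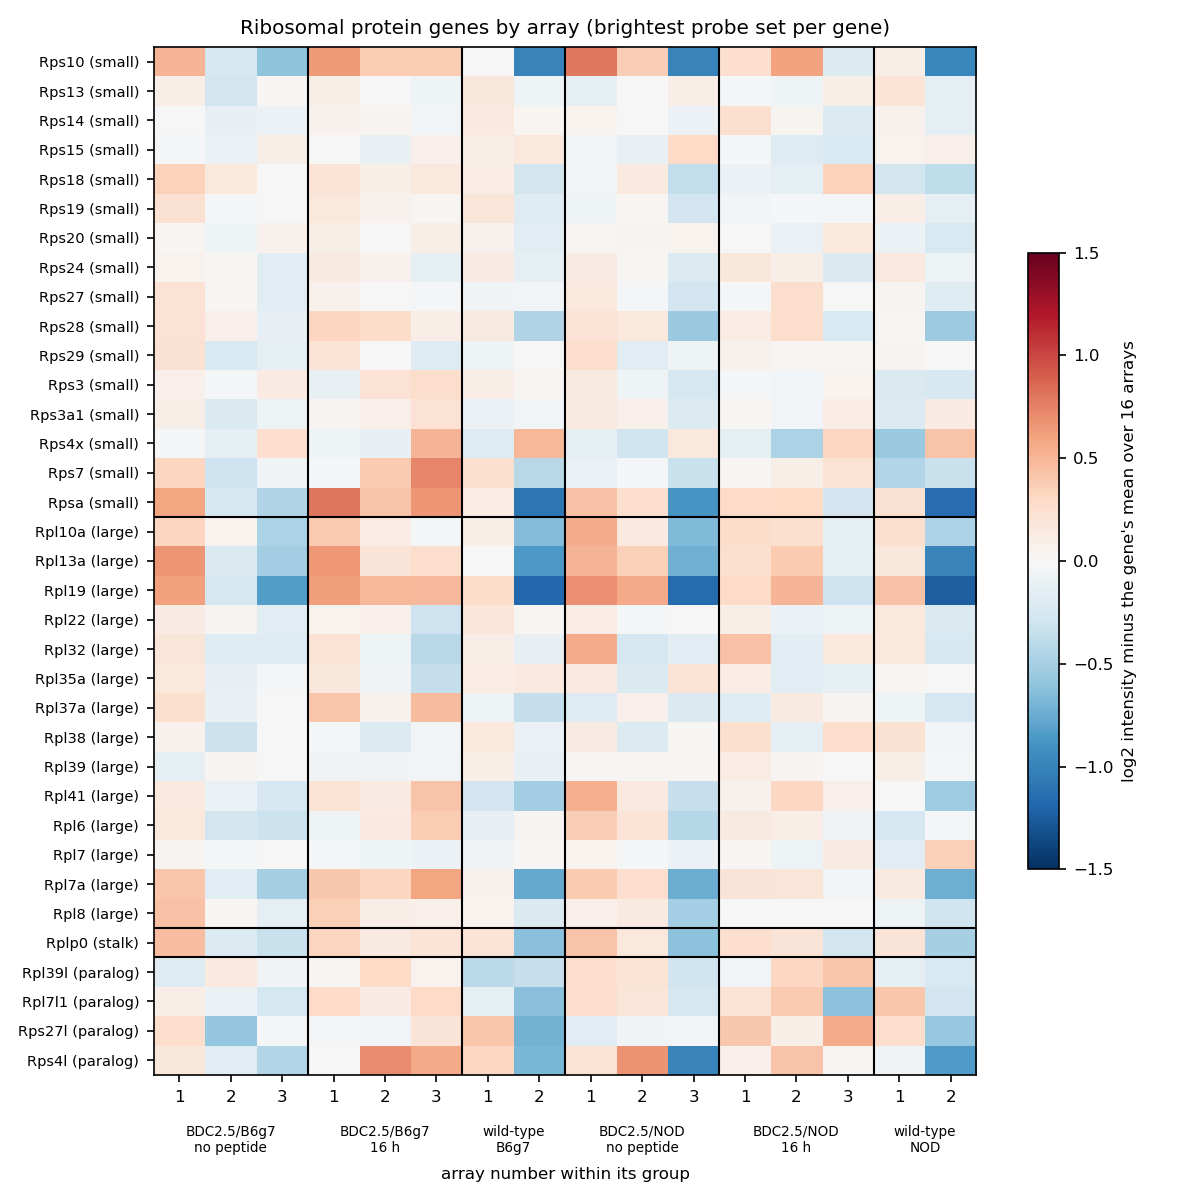
Log2 intensity of each of the 35 ribosomal protein genes (rows, by subunit) on each of 16 arrays (columns, by group and array number), minus the gene's mean over the arrays; red is above and blue below that mean. Rpsa, Rpl19, Rpl13a, Rpl7a and Rps10 are lowest on arrays numbered 3 without peptide and on wild-type arrays numbered 2, while Rps4x is above its mean on these arrays.

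Rpsa, the laminin receptor-related protein of the small subunit, read 2100.4, 1173 and 1023 in BDC2.5/B6g7 without peptide and 2447, 1882 and 2219 at 16 h. In BDC2.5/NOD it read 1898, 1667 and 755 without peptide and 1700.1, 1726 and 1150.0 at 16 h. Wild-type B6g7 gave 1513 and 662, and wild-type NOD 1636 and 632. Its third-number array was the lowest of its group in each group but BDC2.5/B6g7 at 16 h. Rps4x, the X-linked form of a small-subunit protein, ran the other way. It read 3895, 3574 and 4678 without and 3757, 3625 and 5601 with peptide in BDC2.5/B6g7, and 3566, 3212 and 4386 without and 3581, 2842 and 4870.4 with it in BDC2.5/NOD. In wild-type B6g7 it read 3453 and 5544, and in wild-type NOD 2668 and 5307. The third-number array was the highest for Rps4x in 6 of 6 groups.

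The third-number array lay below the mean of the other arrays of its group in 6 of 6 groups for 10 members: Rpl10a, Rpl13a, Rpl19, Rpl22, Rpl8, Rplp0, Rps10, Rps14, Rps24 and Rps28. Of all probe sets 20.5% did so, and of 736 other bright probe sets 25.8%, beside 8 of the 20 bright members. Rps4x was the 1 member above that mean in 6 of 6 groups, as 13.6% of all probe sets were. The median of the 6 group differences was -1.23 on the log2 scale for Rpl19, -0.91 for Rpsa, -0.86 for Rps10, -0.81 for Rpl13a, -0.72 for Rpl7a and 0.61 for Rps4x. For Rps3 (0.04), Rps3a1 (0.09), Rps7 (0.02) and Rpl6 (-0.003), which are bright as well, it was near 0. The part of the 3′ to 5′ signal in these differences was not tested.

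The members varied together within groups. With each gene's group means removed, the median correlation between pairs of the 20 bright genes over 16 arrays was 0.52, and over pairs of all 35 it was 0.31. These are descriptions, since the points share arrays and the authors' scaling. The same values were not computed for other bright probe sets or without the third-number arrays. The median correlation with the bright genes was highest for Rpl7a (0.87), Rpl19 (0.87), Rpl13a (0.85), Rplp0 (0.85), Rpsa (0.85) and Rps10 (0.85). It was -0.63 for Rps4x, -0.45 for the dim Rps15 and -0.26 for Rpl7. Rpl19, Rpsa, Rps10, Rpl13a and Rpl7a also had the lowest third-number differences given above, and Rps4x the highest. The part of the third-number arrays in the correlations was not tested.

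The bright members of an array gave a median log2 level, relative to each gene's mean over arrays, of -0.40 on BDC2.5/NOD array 3 without peptide, -0.38 on wild-type B6g7 array 2 and -0.36 on wild-type NOD array 2. The same median was 0.26 on BDC2.5/B6g7 array 3 at 16 h, the only third-number array above 0. The other 10 arrays lay between -0.13 and 0.28. The median of 736 other bright probe sets stayed between -0.11 and 0.10 on the 16 arrays.

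**Figure D2:**
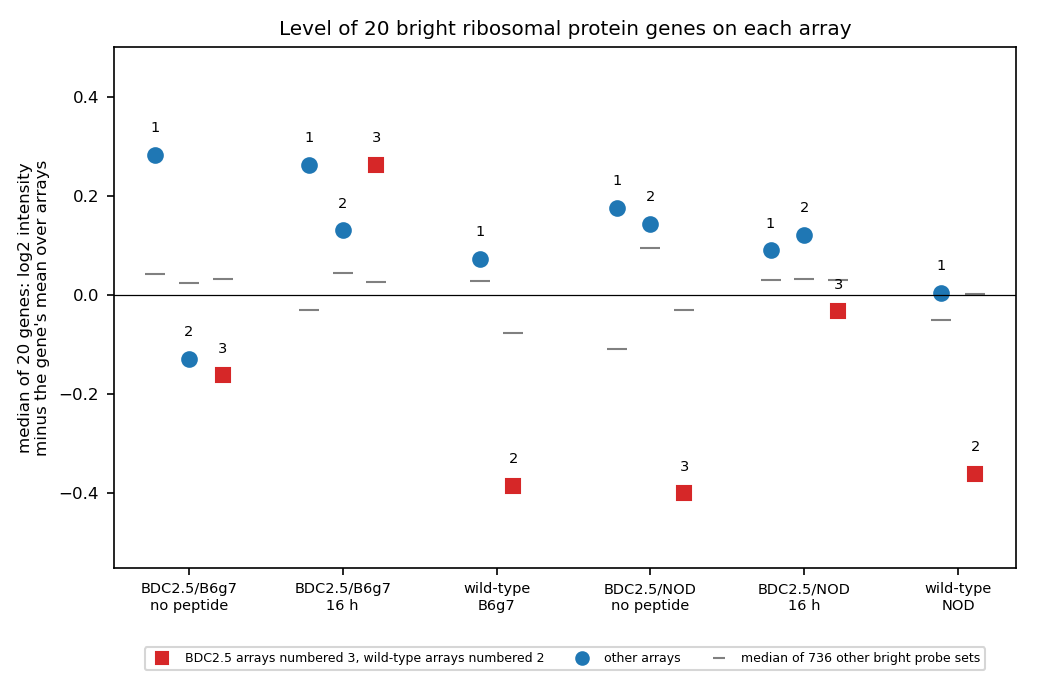
Median log2 level of the 20 bright ribosomal protein genes on each array (vertical axis, relative to each gene's mean over arrays) by group; squares are the third-number arrays, circles the others, numbers the array numbers, and grey dashes the median of 736 other bright probe sets. The lowest array is BDC2.5/NOD array 3 without peptide, at -0.40, and the grey dashes stay between -0.11 and 0.10.

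Peptide was the first contrast, the level of the ribosomal protein messages of BDC2.5 thymocytes at 16 h against that without peptide. Averaged over both strains, 31 of 35 members were higher at 16 h, where 42.4% of all probe sets were. The differences were small, with a median of 0.08 on the log2 scale (all probe sets -0.02) and a range from -0.10 to 0.42. Of the 20 bright members 19 were higher, with a median of 0.155. The share of other bright probe sets that were higher was not computed. Not 1 member passed the test: 0 of 35 were called at an adjusted p under 0.05 with limma, where 0.0242% of all probe sets were (3 of 12422). At an unadjusted p under 0.05 there were again 0 of 35, against 3.58% of all probe sets. Adjusted p was 0.998 for each member. The 95% interval of the difference lay within a doubling and a halving for 32 of 35 members. Rpsa, Rpl19 and Rps10 were the 3 whose interval reached past a doubling.

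Rpsa had the largest difference, 0.42 ± 0.31 (log2 difference and SE; 95% interval -0.25 to 1.09; 12 BDC2.5 arrays, limma adjusted p 0.998). Rpl19 followed with 0.41 ± 0.40, the Rps4x paralog Rps4l with 0.38 ± 0.27, Rps10 with 0.37 ± 0.32 and Rpl7a with 0.33 ± 0.24. Rpl7a is a large-subunit protein and Rps10 a protein of the small-subunit head. The smallest p was that of Rps7, 0.0759 unadjusted and 0.998 adjusted by limma, with 0.32 ± 0.17 (95% interval -0.04 to 0.68). The 4 members that were lower at 16 h were Rps15 (-0.10), Rpl35a (-0.09), Rpl22 (-0.06) and Rpl7 (-0.01).

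**Figure D3:**
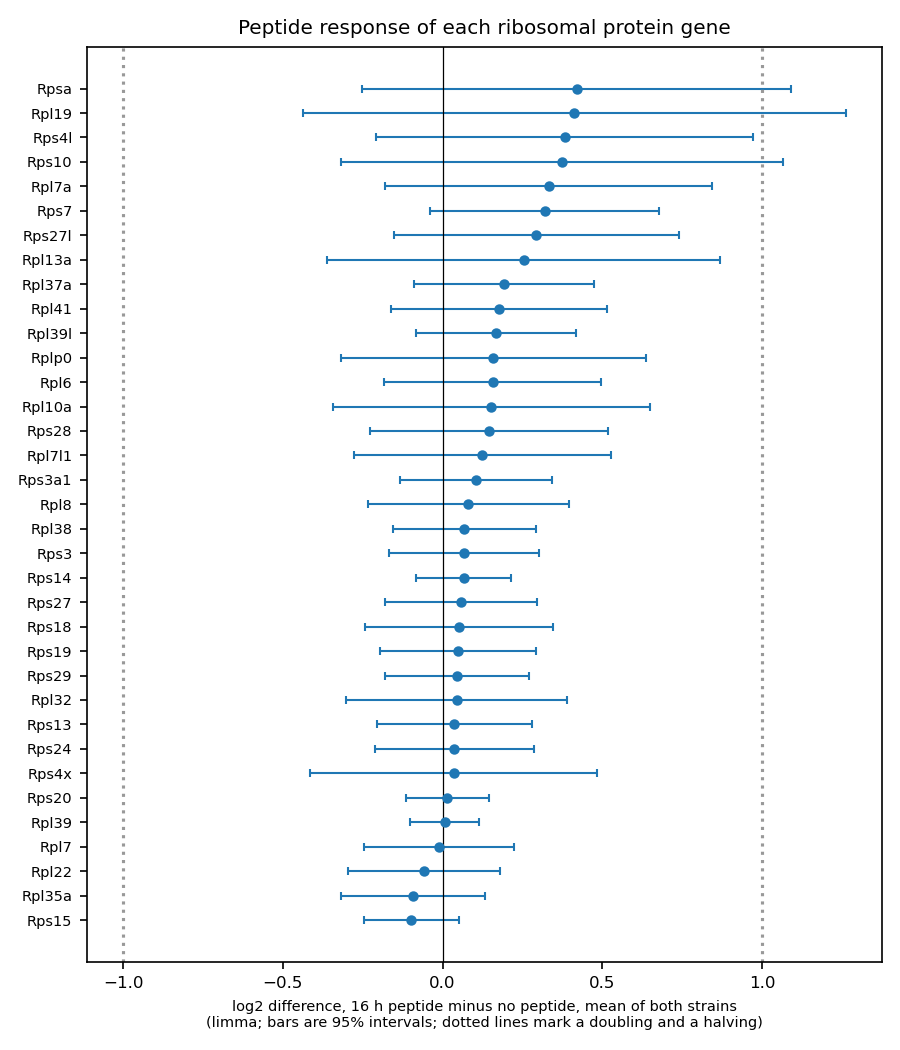
Log2 difference between 16 h of peptide and no peptide, averaged over B6g7 and NOD, for each ribosomal protein gene (limma; points are estimates, bars 95% intervals, 12 BDC2.5 arrays). Each interval includes 0, and the intervals of Rpsa, Rpl19 and Rps10 reach past a doubling.

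In B6g7, 26 of 35 members were higher at 16 h (48% of all probe sets), with a median of 0.10. Of the 20 bright members 18 were higher, with a median of 0.222. Of the 35 members 0 were called, against 0.00805% of all probe sets, and 0 had an unadjusted p under 0.05 with limma, against 3.4%. The largest differences were those of Rpl19 (0.69 ± 0.56), Rpsa (0.67 ± 0.44) and Rps10 (0.58 ± 0.46). The lowest were Rpl35a (-0.08), Rpl22 (-0.07) and Rpl7 (-0.06). The paralog Rpl7l1 was the 1 member whose arrays did not overlap, reading 149.7, 131 and 117 without and 171, 151 and 169.9 with peptide; 3.48% of all probe sets did so in that direction. It is thought to act in making the large subunit rather than in the finished ribosome.

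In NOD, 29 of 35 members were higher at 16 h (42% of all probe sets), with a median of 0.08. Of the 20 bright members 19 were higher with all arrays, with a median of 0.101. Again 0 of 35 members were called, against 0% of all probe sets, and 0 of 35 had an unadjusted p under 0.05 with limma, against 1.67%. The largest differences were those of Rps27l (0.43 ± 0.29), Rps7 (0.26 ± 0.24) and Rps4l (0.20 ± 0.39), and the lowest those of Rps15 (-0.19), Rpl35a (-0.10) and Rpl7l1 (-0.07). The arrays of Rps27l and Rps7 did not overlap, and 2.33% of all probe sets did so in that direction. Rps7 read 2274, 2397 and 1929.9 without and 2462, 2580.3 and 2813 with peptide in NOD, and 3036, 1951 and 2341 without and 2397, 3197 and 4037 with it in B6g7, where the groups overlapped.

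The direction in NOD rested on the third-number arrays. Without them 13 of 35 members were higher at 16 h in NOD (43.1% of all probe sets), with a median of -0.04, and 27 of 35 in B6g7 (51.3% of all), with a median of 0.10. The mean over strains then had 22 of 35 higher (44.2% of all) and a median of 0.04. Leaving out NOD array 3 without peptide alone took the NOD median from 0.08 to -0.03 and the mean over strains from 0.08 to 0.04. Between same-numbered arrays, the median difference of the 35 members in NOD was -0.08 for the arrays numbered 1, 0.04 for those numbered 2 and 0.32 for those numbered 3. In B6g7 it was -0.01, 0.18 and 0.21. For Rpl19 the same differences, for arrays numbered 1, 2 and 3, were -0.40, -0.06 and 0.85 in NOD and 0.01, 0.75 and 1.32 in B6g7. For Rpsa they were -0.16, 0.05 and 0.61 in NOD and 0.22, 0.68 and 1.12 in B6g7. Rpl37a was the 1 member higher at 16 h in 3 of 3 pairs of both strains, with 0.17, 0.17 and 0.48 in B6g7 and 0.01, 0.06 and 0.26 in NOD. It reached 0.19 ± 0.13 over both strains (limma adjusted p 0.998). How often other probe sets were higher in each pair was not computed, and array labels state no pairing. Whether this pattern sets Rpl37a apart was therefore not tested.

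**Figure D4:**
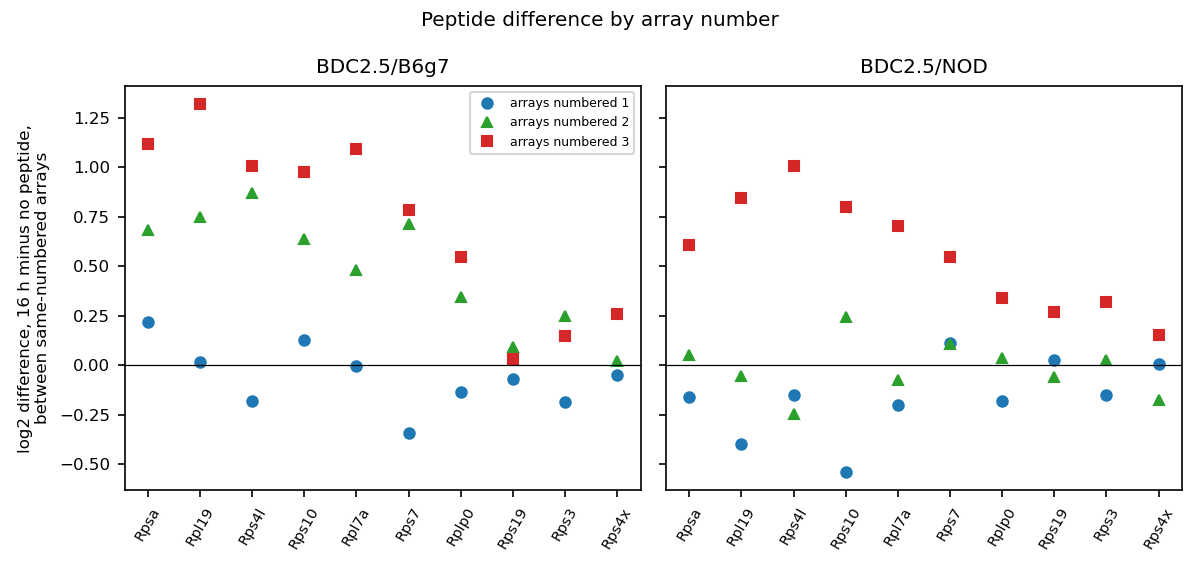
Log2 difference between 16 h of peptide and no peptide for same-numbered arrays (circles numbered 1, triangles 2, squares 3) of 10 ribosomal protein genes, in BDC2.5/B6g7 (left) and BDC2.5/NOD (right). In NOD the squares are the highest of the 3 points for each gene drawn, and for Rpl19 they reach 0.85 while the circle is at -0.40.

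With the third-number arrays given a term of their own in the fit, 4 members had an unadjusted p under 0.05 in B6g7 (Rpl19, Rpsa, Rpl7a and Rps10), against 7.98% of all probe sets, and 0 were called. In the mean over strains it was Rpsa alone, against 7.74% of all probe sets, and in NOD Rps15 alone, which was lower, against 3.62%. These shares of 4 of 35 and 1 of 35 stand beside a background of the same order.

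Whether the peptide response differed between strains was tested as the response in NOD minus that in B6g7. Of the 35 members 11 were above 0 (43.7% of all probe sets), the median was -0.07 (all probe sets -0.03), and 0 were called, against 0% of all. At an unadjusted p under 0.05 there were 0 of 35, against 1.18% of all probe sets. Rpl19 had -0.56 ± 0.79, Rpsa -0.51 ± 0.62 and Rps10 -0.41 ± 0.64, and at the other end Rps27l had 0.27 ± 0.41, Rps18 0.14 and Rpl38 0.14. The precision was low: 25 of 35 intervals lay within a doubling and a halving. Without the third-number arrays 5 of 35 were above 0 (43.9% of all probe sets) and the median was -0.11. Leaving out 1 array at a time, the median ran from -0.14 without BDC2.5/B6g7 array 1 without peptide to 0.03 without BDC2.5/NOD array 1 without peptide.

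By role, 15 of 16 small-subunit genes were higher at 16 h in the mean over strains, with a median of 0.06, and 11 of 14 large-subunit genes, with a median of 0.12. Rplp0, the scaffold of the stalk that recruits elongation factors, had 0.16 ± 0.22. It read 9236, 5811 and 5314 without and 8396, 7385 and 7762 with peptide in B6g7, and 9020.1, 7495 and 4399 without and 7967, 7678 and 5565 with it in NOD, so that the groups overlapped. Rplp1 and Rplp2, its partners in the stalk, were not among the members. Rps3, which lines the entry path of the message and also has a role in DNA repair, had 0.07 ± 0.11, and Rps19, in which mutations cause Diamond-Blackfan anaemia in people, had 0.05 ± 0.11. Both were tightly measured: the 95% interval was -0.17 to 0.30 for Rps3 and -0.20 to 0.29 for Rps19.

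Rps19 read 4669, 3923 and 3982 in BDC2.5/B6g7 without peptide and 4454, 4176 and 4069 at 16 h. In BDC2.5/NOD it read 3814, 4077 and 3272 without peptide and 3885, 3910.2 and 3934 at 16 h. Wild-type cells read 4514 and 3493 in B6g7 against 4281 and 3608 in NOD. The groups with and without peptide overlapped in both strains. Of 9 listed ribosomal proteins tied to that anaemia, 5 were members, of which 4 were higher at 16 h in the mean over strains, with a median of 0.05 and 0 called. Of 8 listed proteins that bind Mdm2, the inhibitor of p53, 3 were members (Rps3, Rps7 and Rps14), with a median of 0.07 and 0 called. Since 0.0242% of all probe sets were called in this comparison, 0 called says little about lists this small.

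Rpl22 is a large-subunit protein known to be needed for alpha-beta T cells to develop past the double-negative stage. It was dim, and read 148, 140.4 and 122 in BDC2.5/B6g7 without peptide and 141, 143 and 109 at 16 h, and 147, 133 and 136 without and 146, 128 and 129 with it in BDC2.5/NOD. Its difference was -0.06 ± 0.11 in the mean over strains (95% interval -0.29 to 0.18), and -0.02 between the strains. Its paralog Rpl22l1 was not measured by a probe set of its own. Rpl39 and Rps14, with group means between 19.8 and 21.3 and between 16.6 and 18.6, lay below the array medians, and their differences of 0.01 and 0.07 are given without knowing whether they lie above background.

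The paralogs were dim. Rps27l, a p53 target in other cells that resembles Rps27, read 125, 134 and 136 in BDC2.5/NOD without peptide and 184, 147 and 205 at 16 h. In BDC2.5/B6g7 it read 167, 92.8 and 138 without and 137, 136 and 159 with peptide. Without overlap in NOD and with overlap in B6g7, its difference between strains was the 0.27 ± 0.41 given above, with a 95% interval of -0.62 to 1.16. Rps27 itself had 0.12 in NOD and -0.01 in B6g7. Rps4l read 112, 89.1 and 73.3 without and 98.6, 163 and 147 with peptide in B6g7, and 116, 158 and 50 without and 104, 133 and 100.3 with it in NOD, with its low array again numbered 3 without peptide in both. Rpl39l, a paralog known for its testis expression, had 0.17 ± 0.12 in the mean over strains.

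The members with CTTTCC near the transcript start had peptide differences within the range of the others. The 6 such genes had a median of 0.12 in the mean over strains, from -0.09 (Rpl35a) to 0.37 (Rps10), and the 22 others with a window had a median of 0.14, from -0.10 to 0.42. Rps10 and Rpl13a, whose starts are printed above, had 0.37 and 0.25, while Rps27, with the core nearest to the start, had 0.06. These counts carry no test. Most ribosomal protein messages begin with a TOP tract, so the 22 others can be TOP messages too. The comparison therefore cannot set TOP messages against others.

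The genes around the ribosome give these values a setting. Of 31 ribosome biogenesis genes, 28 were higher at 16 h in the mean over strains (42.4% of all probe sets), with a median of 0.25, and 0 were called (0.0242% of all). An unadjusted p under 0.05 in limma was found for 7 of the 31, against 3.58% of all. In B6g7 the median was 0.35 and in NOD 0.17. Ppan, which acts in large-subunit assembly, read 69.7, 45.7 and 26.4 without and 107, 86.5 and 154 with peptide in B6g7, a difference of 1.36 ± 0.45. In NOD it read 60.9, 54.55 and 21.61 without and 62.81, 67.49 and 43.47 with peptide. Its array 3 was the lowest without peptide in both strains. Over both strains Ppan had 0.91 ± 0.32 (limma adjusted p 0.998). Wdr12, of the PeBoW complex that processes large-subunit RNA, was lower at 16 h, with -0.33 ± 0.10 on values below the array medians. Gar1, of the pseudouridylation particles, had 0.32 ± 0.14.

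Myc, a transcription factor that drives ribosome production, read 13.9, 14.6 and 17.2 without and 27.7, 16.1 and 41 with peptide in B6g7. In NOD it read 13.9, 13.7 and 14.7 without and 14.7, 15.9 and 26.2 with peptide. Array 3 was the highest in each of these groups. The Myc difference was 0.59 ± 0.19 over both strains, with an unadjusted p of 0.00762 in limma and an adjusted p of 0.998. All Myc values lay below the array medians, and whether they lie above background was not tested. The kinases Mtor and Akt1 had 0.17 ± 0.18 and -0.23 ± 0.12. The 12 measured regulators had a median of -0.04 and 0 were called (0.0242% of all probe sets).

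Of 61 mitochondrial ribosomal protein genes, 51 were higher at 16 h in the mean over strains (again beside 42.4% of all probe sets), with a median of 0.14. Of them 0 were called (0.0242% of all). Mrpl15 had 0.34 ± 0.14 and Mrpl21 0.33 ± 0.16. Of 15 other translation genes with TOP messages, 9 were higher (42.4% of all), with a median of 0.04, and 0 were called (0.0242% of all). Among them the poly(A)-binding protein Pabpc1 had 0.22 ± 0.17, the elongation factor Eef2 0.03 ± 0.18, Naca 0.24 ± 0.18 and the nucleolar Npm1 0.33 ± 0.42. Fau, which encodes the small-subunit protein eS30 fused to a ubiquitin-like domain, had 0.10 ± 0.10. The 39 ribosomal probe sets that name several genes had a median of 0.18, with 33 of 39 higher (42.4% of all) and 0 called (0.0242% of all). The difference of the medians between these lists was not tested.

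**Figure D5:**
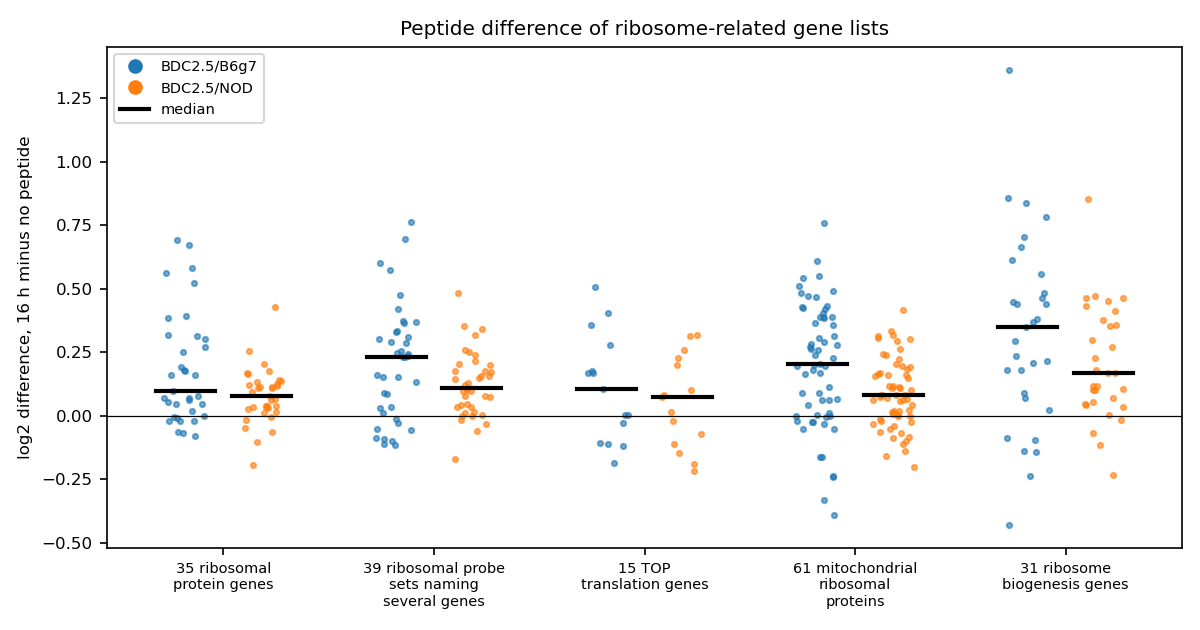
Log2 difference between 16 h of peptide and no peptide for each gene or probe set (points) of 5 ribosome-related lists, in BDC2.5/B6g7 (blue) and BDC2.5/NOD (orange); black bars are medians, and horizontal scatter is for display. The medians in B6g7 and NOD were 0.10 and 0.08 for the 35 ribosomal protein genes and 0.35 and 0.17 for the biogenesis genes.

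The second comparison set NOD against B6g7. Averaged over the 3 states of the cells, 14 of 35 members were higher in NOD (51.1% of all probe sets), with a median of -0.02, and 0 were called, against 1.3% of all probe sets (161 of 12422). At an unadjusted p under 0.05 there were 0 of 35 members with limma, against 5.98% of all probe sets. This was the most precise comparison: each of the 35 intervals lay within a doubling and a halving, and 31 within a 1.5-fold difference either way. Rps7 was lowest in NOD (-0.23 ± 0.15), followed by Rps18 (-0.20 ± 0.12), Rps4x (-0.18 ± 0.18), Rps3 (-0.18 ± 0.10) and Rpsa (-0.18 ± 0.28). At the other end were Rpl39l (0.12 ± 0.10), Rpl7l1 (0.12 ± 0.16), Rpl38 (0.11 ± 0.09), Rps27l (0.11 ± 0.18) and Rpl32 (0.10 ± 0.14), each of them dim.

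Without the third-number arrays the mean strain difference turned in sign: 18 of 35 members were higher in NOD (51.4% of all probe sets), with a median of 0.03. Each wild-type group then held 1 array, assumed to vary like the others. Then 2 of 35 had an unadjusted p under 0.05 with limma, Rpl7l1 (log2 difference 0.29) and Rps18 (-0.28), against 7.28% of all probe sets, and 0 were called. Leaving out 1 array at a time, the median ran from -0.06 without wild-type B6g7 array 2 to 0.04 without wild-type NOD array 2.

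Rps3 had the smallest p between strains, 0.0836 unadjusted and 0.993 adjusted by limma. It read 6677, 6217 and 6905 in BDC2.5/B6g7 and 6964, 6065 and 5299.8 in BDC2.5/NOD without peptide. At 16 h it read 5867, 7385 and 7645 in B6g7 and 6268, 6169.7 and 6619 in NOD, and in wild-type cells 6835 and 6515 in B6g7 against 5466 and 5403 in NOD. The strains overlapped in the BDC2.5 cells and did not in the wild-type cells, of which there were 2 arrays each.

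Without peptide, 24 of 35 members were higher in NOD (60.4% of all probe sets), the median was 0.04, and 0 were called, against 0.266% of all; 0 had an unadjusted p under 0.05 with limma, against 3.45% of all. The extremes were Rpl6 (0.20), Rpl19 (0.19) and Rpl41 (0.18) against Rps18 (-0.26), Rpl8 (-0.21) and Rps19 (-0.17). The sign of this median hung on single arrays: it was -0.08 without BDC2.5/NOD array 1 and 0.12 without BDC2.5/B6g7 array 1. Without the third-number arrays it was 0.06, with 25 of 35 higher (57.1% of all probe sets). At 16 h, 11 of 35 were higher in NOD (51.8% of all probe sets), with a median of -0.10. Of the 20 bright members 1 was higher in NOD at 16 h (median -0.175) and 10 were without peptide (median -0.003). At 16 h 0 of 35 were called, against 0.491% of all, and 0 had an unadjusted p under 0.05 with limma, against 5.68% of all. Rpsa was lowest (-0.53 ± 0.44), then Rpl19 (-0.37) and Rpl7a (-0.34). The highest were Rps27l (0.30), Rpl32 (0.24) and Rpl38 (0.21), each of them dim.

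At 16 h the arrays of Rpsa, Rpl7a, Rpl8 and Rps19 were each lower in NOD with no overlap (5.39% of all probe sets), and those of the dim Rpl39 were higher (6.45%). Rpl7a read 3968, 3741 and 4504 in B6g7 and 3409, 3377 and 2897 in NOD. Its array 3 was the highest of the group in B6g7 and the lowest in NOD. Without the third-number arrays the median of the members at 16 h was -0.07, with 12 of 35 higher (50% of all probe sets). Among the genes around the ribosome, the mean strain difference was -0.53 ± 0.16 for Mrpl16 and 0.30 ± 0.11 for Mrpl35 of the mitochondrial ribosome, -0.32 ± 0.09 for Wdr12, -0.36 ± 0.12 for Gar1, 0.40 ± 0.16 for Mtor, -0.20 ± 0.17 for Myc, -0.31 ± 0.16 for Eef2 and -0.61 ± 0.37 for Npm1. The lowest adjusted p among them was 0.161 with limma, for Wdr12. The strain comparisons and the peptide comparisons use the same BDC2.5 arrays, and their values are given side by side.

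In wild-type cells 17 of 35 members were higher in NOD (41.3% of all probe sets), the median was -0.01, and 0 were called, against 0.0886% of all; 0 had an unadjusted p under 0.05 with limma, against 2.09% of all. The highest were Rpl7l1 (0.45), Rpl39l (0.18) and Rpl10a (0.17), and the lowest Rps7 (-0.30), Rps3 (-0.30) and Rps4l (-0.26). Rpl35a, Rps15, Rps18 and Rps3 were lower on both NOD arrays than on both B6g7 arrays, as 14.3% of all probe sets were, and Rpl39l and Rps29 were higher, as 6.55% were. Without both third-number arrays the median was -0.01, with 16 of 35 higher (49.3% of all probe sets). It ran from -0.19 without wild-type B6g7 array 2 to 0.14 without wild-type NOD array 2, which are the 2 third-number arrays of these groups.

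The third comparison set BDC2.5 cells without peptide against wild-type cells. In B6g7, 21 of 35 members were higher in BDC2.5 cells (44.2% of all probe sets), the median was 0.06, and 0 were called, against 0.0805% of all; 0 had an unadjusted p under 0.05 with limma, against 1.49% of all. In NOD 25 of 35 were higher (61% of all probe sets), the median was 0.08, and 0 were called, against 0.0564% of all; 0 had an unadjusted p under 0.05 with limma, against 2%. Rpsa (0.44 ± 0.49), Rpl13a (0.41 ± 0.45) and Rps10 (0.39 ± 0.51) were highest in B6g7, and Rps10 (0.49 ± 0.51), Rpl13a (0.46 ± 0.45) and Rpl19 (0.43 ± 0.62) in NOD. The lowest were Rps14 (-0.16), Rps15 (-0.13) and Rpl35a (-0.13) in B6g7, and Rpl7 (-0.12), Rpl38 (-0.11) and Rps19 (-0.09) in NOD.

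Rpl13a, which also takes part in the gamma interferon-activated control of translation, had its lowest array in the same place in each of these groups. It read 1197, 653 and 526 in BDC2.5/B6g7 without peptide against 757 and 416 in wild-type B6g7, and 1074, 968 and 458 in BDC2.5/NOD against 851 and 381 in wild-type NOD. The groups overlapped, and the low array was number 3 of 3 in the BDC2.5 groups and number 2 of 2 in the wild-type groups. In B6g7 the arrays of Rpl39l and Rpl41 were higher in BDC2.5 cells with no overlap (4.15% of all probe sets) and those of Rps14 and Rps15 lower (6.91%). In NOD those of Rps20 and Rps7 were higher (6.19%). Without the third-number arrays the median was 0.01 in B6g7, with 18 of 35 higher (48.7% of all probe sets), and 0.12 in NOD, with 23 of 35 higher (55.9%). Each wild-type group then held 1 array. Leaving out wild-type array 2 gave medians of -0.11 in B6g7 and -0.07 in NOD, and leaving out wild-type array 1 gave 0.26 and 0.20.

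For 10 members more than 1 probe set was at hand, and the second one was mostly dim. Where both were bright they ran alike: Rpl10a gave 0.15 and 0.26 in the mean peptide difference, and the 2 bright probe sets of Rps28 gave 0.15 and 0.22. For Rpl19 the probe set used here, with a mean intensity of 2908, gave 0.41, and its other one, at 74.1, gave -0.16. Rps4l gave 0.38 and 0.05 with means of 99.1 and 27.7. The probe sets used for Rps24 and Rpl7, with means of 8381 and 4787, carry the same source sequence in the platform annotation. The other probe sets of these genes had means of 35.6 and 21.9. Whether the bright Rps24 probe set reads Rps24 or Rpl7 messages was not tested. Ribosomal protein genes have many processed pseudogenes and close paralogs, so that a probe set named for 1 gene can also read related copies; the names of 5 members' probe sets end in _r_at, 3 in _f_at and 2 in _s_at, Affymetrix marks for probes that are not unique to 1 transcript or do not meet the usual selection rules.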

How the data were processed

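Intensities were taken from the values table deposited by the authors, 1 linear value per probe set and array from 7.77 to 14085; background correction, summary and scaling are not given in the sources used here. Array medians of log2 values lay within 0.113 of each other, so the arrays were not rescaled, and log2 of each value was used without a pseudocount. Of 12488 probe sets, 66 controls were left out. Of the 12422 tested, 10833 named 1 gene, 396 several and 1193 none in GEO's platform annotation, which can be old. All 35 members matched RefSeq by gene ID with the same symbol. The 16 arrays were placed in groups by their titles, and the number of arrays limits the precision.

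The model was fitted with limma 3.58.1 (R 4.3.3) using lmFit, contrasts.fit and a trended eBayes over all 16 arrays with 6 group means, 10 residual and 3.60 prior degrees of freedom. Tests were two-sided, with Benjamini-Hochberg adjustment over 12422 probe sets within each of 10 comparisons and calls at an adjusted p under 0.05. Values after ± are standard errors. The fit was tested on simulated data. The rule for named genes took the 5 largest differences each way for the mean peptide and strain comparisons, 3 each way for the others, a fixed set of members, and from pathway lists the 2 smallest p of those comparisons; Rps7, Rpl37a and members named for arrays that do not overlap were chosen after their values were seen. Members, lists and tests were chosen with earlier results of these data known.

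Titles number the arrays within groups. Deviations of same-numbered BDC2.5 arrays from their group means correlated across probe sets, which are not independent, at 0.639, 0.249 and 0.600 between peptide groups in B6g7 and at 0.608, 0.581 and 0.793 in NOD. Between strains they correlated at 0.777, 0.165 and 0.842 without peptide and at 0.577, 0.234 and 0.569 at 16 h. The numbers were therefore treated as pairs in an alternative fit with a replicate block, though deviations cancel within a group and the labels state no pairing. Other alternatives were a pseudocount of 32, a filter on intensity above 50 on at least 2 arrays, median centring, quantile normalization, a fit without the intensity trend, a fit of the compared groups alone, other probe set rules, leaving out each array, and leaving out or modelling the third-number arrays; after the data were seen, bright members alone and the probe sets naming several genes were added.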

Additional observations from a re-analysis of the deposited data

How the results depend on the processing

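Under the 16 settings that left out 1 array each and under the other settings, the count of called members was 0 in each of the 10 comparisons. The medians moved by less than the pooled standard deviation of the members' median between arrays of a group (0.162) except with 2 wild-type arrays per group: leaving out 1 array at a time gave -0.192 to 0.142 for the strain difference in wild-type cells and -0.111 to 0.258 for the transgene difference in B6g7, where the wild-type group then rests on 1 array assumed to vary like the others. Leaving out 1 array at a time, the median was 0.036 to 0.137 for the mean peptide difference, 0.068 to 0.190 in B6g7 and -0.034 to 0.172 in NOD; the other settings gave 0.039 to 0.178, 0.076 to 0.233 and -0.043 to 0.110. Signs turned as well for the strain difference of the response (-0.143 to 0.027 with 1 array left out), the strain difference without peptide (-0.076 to 0.120; other settings -0.020 to 0.058), the mean strain difference (-0.062 to 0.041; other settings -0.060 to 0.028) and the transgene difference in NOD (-0.070 to 0.197). With the replicate number as a block, 0 members were called in each comparison, and the median of the transgene difference in NOD was 0.151 in place of 0.080; the block changed no call. The median of the strain difference at 16 h stayed below 0, at -0.109 to -0.045 with 1 array left out and -0.175 to -0.026 under the other settings. Of 8690 gene values compared over settings, 588 changed sign, and 0 of them had been called or became called. Limits are the 2 or 3 arrays per group, the unstated scaling, and 15 members with intensities at or below 234.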
